A study of Mus musculus with 4 samples.

Results

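The genes described here are 8 genes of myelin and of Schwann cells, the glia that wrap axons in peripheral nerves, chosen by symbol from the 51912 genes of the deposited table. Of these, 5 belong to the myelin sheath or to the myelinating state (Mbp, Pmp22, Prx, Mag and Ncmap) and 3 mark Schwann cells more generally (Sox10, S100b and Ngfr). All 8 symbols were found once and all 8 were among the 15643 genes with enough counts to be tested. RNA was sequenced from subcutaneous white fat of 8-week-old C57BL/6 mice given BML-260, a compound that inhibits the phosphatase DUSP22, or dimethyl sulfoxide (DMSO) as vehicle. Each treatment has libraries A and B (n = 2), with 19999836 to 23726781 expected counts each. The sources used here do not give dose, route or length of treatment. The series names 8 mice for 4 libraries without saying how they map, so p-values measure the spread between these libraries only.

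White fat is threaded by nerve fibres, some of them large bundles that run to the skin or through the depot. Myelinating Schwann cells build a compact sheath around single large axons, while non-myelinating ones hold several thin axons, among them sympathetic fibres. The transcription factor SOX10 keeps Schwann cell identity and works with EGR2 to switch on the genes of the sheath. In bulk tissue, fewer Schwann cells and less RNA per Schwann cell cannot be told apart.

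The promoter letters of 4 members are shown as a description, to let the motifs of the regulators named above be seen in place: Mag, Prx and Ncmap hold a match to one of the motifs searched and S100b holds none. The 4 were chosen after their matches and levels were known. Each line gives the 250 bases before a RefSeq start site on build GRCm38.p6, read 5′ to 3′ on the gene's strand, with motif matches in capitals.
Mag (chr7:30914864-30915113, minus strand): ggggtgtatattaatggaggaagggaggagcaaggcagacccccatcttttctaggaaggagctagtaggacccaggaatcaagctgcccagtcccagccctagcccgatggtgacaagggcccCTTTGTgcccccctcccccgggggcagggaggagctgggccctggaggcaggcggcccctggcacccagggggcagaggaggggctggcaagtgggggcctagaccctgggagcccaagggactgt
Prx (chr7:27499074-27499323, plus strand): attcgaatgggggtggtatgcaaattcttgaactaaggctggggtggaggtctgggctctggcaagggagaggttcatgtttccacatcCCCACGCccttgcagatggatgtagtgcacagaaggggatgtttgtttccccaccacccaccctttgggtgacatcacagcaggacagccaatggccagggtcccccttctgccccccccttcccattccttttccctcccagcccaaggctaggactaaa
Ncmap (chr4:135385673-135385922, minus strand): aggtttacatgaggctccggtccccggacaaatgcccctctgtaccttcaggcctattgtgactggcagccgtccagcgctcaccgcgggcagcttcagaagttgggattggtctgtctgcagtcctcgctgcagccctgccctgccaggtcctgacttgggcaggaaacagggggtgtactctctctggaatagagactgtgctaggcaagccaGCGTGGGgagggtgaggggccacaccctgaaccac
S100b (chr10:76253586-76253835, plus strand): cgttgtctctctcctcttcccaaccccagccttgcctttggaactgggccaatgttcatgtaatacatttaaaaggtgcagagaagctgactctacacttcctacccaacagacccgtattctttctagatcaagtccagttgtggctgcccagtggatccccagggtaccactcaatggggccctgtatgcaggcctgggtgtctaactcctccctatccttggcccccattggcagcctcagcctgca
The motifs were ACAAAG, the core letters bound by SOX factors, and GCGTGGG, part of the EGR site, each on both strands. No match to one motif overlapped the other. Windows of 6 members were searched, at 12 start sites in all, and Mbp and Sox10 were not. ACAAAG occurred at 2 of the 12, both start sites of Mag whose windows overlap and share 1 match, and in 16.5% of all 32851 promoter windows. GCGTGGG occurred at 2 of the 12, the start site of Prx and the second one of Ncmap, and in 4.3% of all windows. That Ncmap site lies 12555 bases from the annotated start of the gene, and the window at the annotated start held neither motif. The Prx match begins 161 bases before the start site, the Ncmap match 35 bases and the Mag match, in the window shown, 126 bases. Pmp22, with 4 start sites, and Ngfr held neither, and Pmp22 also lay lower with BML-260. The share of windows with ACAAAG is near that over all promoters, and the counts are too few to set matches against levels.

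Of the 5 myelinating genes, 4 stood below 50% of their vehicle level with BML-260. Mbp, Prx and Mag lay at 47.7%, 47.6% and 42.9% of it and Ncmap at 36.6%, while Pmp22 lay at 76.0%. Among the general glial genes, Sox10 lay with the myelin genes at 52.1%, and S100b and Ngfr stood at 102% and 98.6%. None of the 8 passed the main test (edgeR quasi-likelihood, Benjamini-Hochberg adjusted p under 0.05 over all tested genes), where 0.0% of genes passed as lower and 0.00639% as higher. Before adjustment, at p under 0.05, 5 of the 8 were lower (Mbp, Prx, Mag, Ncmap and Sox10), against 3.61% of all tested genes. DESeq2 called Mbp and Ncmap lower at an adjusted p under 0.05, 2 of 8 members, against 0.511% of genes. The groups did not overlap, with both BML-260 libraries lower, in 6 of 8 members and in 21.5% of all tested genes.

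**Figure D1:**
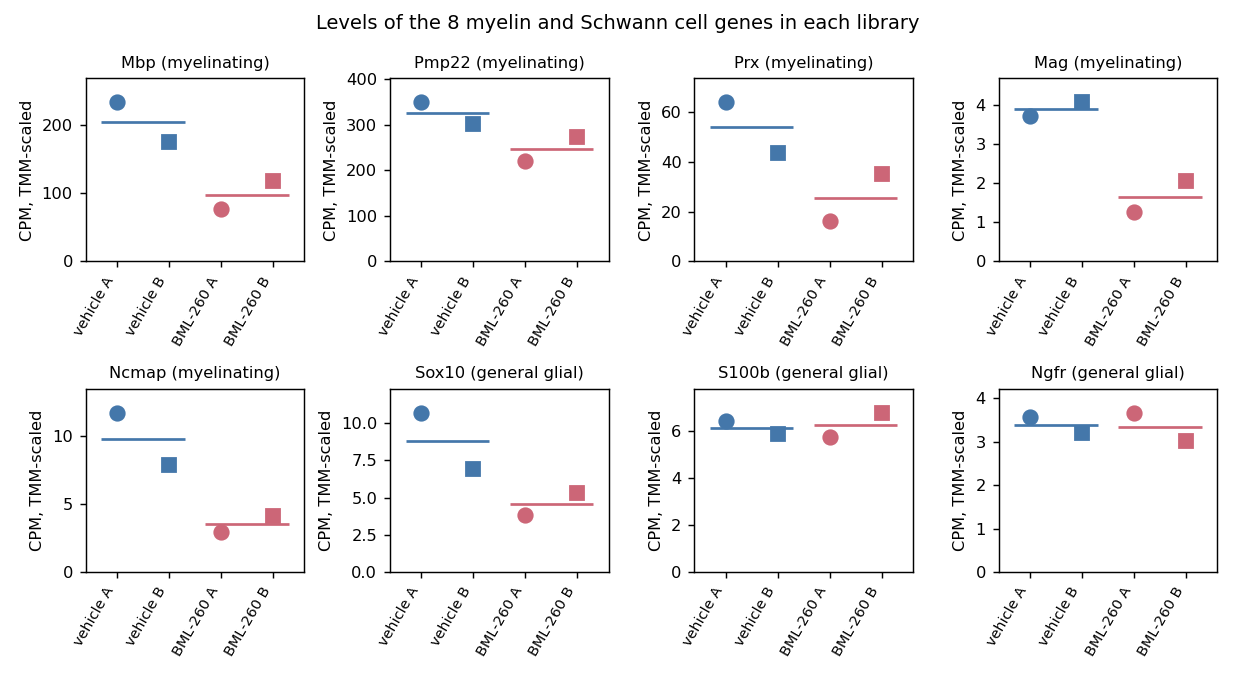
Level of each member (vertical axes, CPM with TMM scaling, each starting at 0) in the vehicle libraries (blue) and BML-260 libraries (red); circles are libraries A, squares libraries B and lines the group means. The groups are apart for Mbp, Pmp22, Prx, Mag, Ncmap and Sox10 and overlap for S100b and Ngfr.

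Per length, the members spanned a wide range in the vehicle libraries. Mean levels in FPKM, fragments scaled to gene length and library size, were 229 for Pmp22, 125 for Mbp, 12.1 for Prx, 5.63 for Ncmap, 5.24 for S100b, 3.68 for Sox10, 2.57 for Mag and 1.08 for Ngfr. In that order the ranges of neighbours overlapped only for Ncmap and S100b. With BML-260 the means were 172 for Pmp22, 52.0 for Mbp, 5.58 for Prx, 5.22 for S100b, 2.06 for Ncmap, 1.87 for Sox10, 1.24 for Mag and 1.05 for Ngfr. S100b stood above Ncmap there. The ranges of Prx and S100b overlapped, as did those of each pair of neighbours from Ncmap to Ngfr.

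Mbp encodes myelin basic protein, which holds the inner faces of the sheath's membrane together. Its reads numbered 4919 and 4070 in vehicle A and B and 1606 and 2584 in BML-260 A and B. Scaled to library size as CPM with TMM factors, these were 233 and 176 in vehicle A and B, against 77.3 and 118 in BML-260 A and B. The lowest vehicle library was 1.49 times the highest BML-260 library, and the BML-260 libraries differed from each other 1.52-fold. The log2 fold change was -1.07 (SE 0.26, 95% interval -1.72 to -0.42, edgeR adjusted p = 0.329, DESeq2 adjusted p = 0.00311). In the authors' deposited table Mbp has a log2 fold change of -0.94 with an adjusted p of 0.00334.

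Ncmap encodes a small membrane protein of the non-compacted parts of Schwann cell myelin, and with all 4 libraries it had the largest difference of the 8. Without vehicle A that of Mag was larger (-1.31 against -1.16), and without BML-260 B that of Prx (-1.74 against -1.71). The gene is protein coding and spans 135369576 to 135398227 on the minus strand of chromosome 4 (GRCm38, GENCODE vM21, as for the positions that follow). Its levels were 11.7 and 7.87 CPM in vehicle A and B, against 2.99 and 4.15 in BML-260 A and B. The log2 fold change was -1.45 (SE 0.31, 95% interval -2.25 to -0.65, edgeR adjusted p = 0.309, DESeq2 adjusted p = 0.0149). In CPM the vehicle libraries differed from each other 1.49-fold, less than the 1.90-fold gap between the lower vehicle and the higher BML-260 library. The FPKM values were 7.7 and 3.57 in vehicle A and B, against 1.52 and 2.60 in BML-260 A and B. On that scale the vehicle libraries were further apart than the groups. The authors' deposited table gives a log2 fold change of -1.07 and an adjusted p of 0.0158. Of the 8 members, that table holds Mbp and Ncmap below an adjusted p of 0.05. Of all its 51912 genes, those with few or no counts included, 0.133% are lower at that threshold.

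Prx encodes periaxin, which links the sheath to its surroundings on the outer side and is made by myelinating Schwann cells. The gene spans 27499324 to 27520214 on the plus strand of chromosome 7. It lay at 63.9 and 43.7 CPM in vehicle A and B, against 16.2 and 35.0 in BML-260 A and B. The BML-260 libraries differed from each other 2.16-fold, more than the 1.25-fold gap between the groups. Its log2 fold change was -1.07 (SE 0.39, 95% interval -2.07 to -0.07, edgeR adjusted p = 0.435). Without BML-260 A it was -0.63 and without BML-260 B -1.74, so the size of the difference turned on which BML-260 library was kept.

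Mag encodes myelin-associated glycoprotein, an adhesion molecule on the sheath face next to the axon, from 30899176 to 30914873 on the minus strand of chromosome 7. It was sparse, with 78 and 94 reads in vehicle A and B, against 26 and 45 in BML-260 A and B. Its levels were 3.70 and 4.06 CPM in vehicle A and B, against 1.25 and 2.05 in BML-260 A and B. Mag was the only myelinating member for which vehicle B exceeded vehicle A in CPM. In FPKM vehicle A was the higher for Mag too, at 2.71 against 2.43. The log2 fold change was -1.22 (SE 0.36, 95% interval -2.12 to -0.32, edgeR adjusted p = 0.377).

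Pmp22 encodes a tetraspan membrane protein of compact myelin and is also made by fibroblasts and other cells outside nerve. The gene spans 63128982 to 63159547 on the plus strand of chromosome 11. It lay at 350 and 302 CPM in vehicle A and B, against 222 and 274 in BML-260 A and B, the smallest relative difference of the myelinating members. The gap between the groups was 1.1-fold, less than the differences between the vehicle libraries (1.16-fold) and between the BML-260 libraries (1.23-fold). Its log2 fold change was -0.40 (SE 0.18, 95% interval -0.85 to 0.06, edgeR adjusted p = 0.492). The whole interval of Pmp22 lay above the point estimates of Mbp, Prx, Mag and Ncmap; the difference between these genes was not tested.

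Sox10, the transcription factor gene of Schwann cells, spans 79154908 to 79165240 on the minus strand of chromosome 15. It lay at 10.7 and 6.92 CPM in vehicle A and B, against 3.85 and 5.28 in BML-260 A and B. Both BML-260 libraries were below both vehicle libraries, with a 1.31-fold gap. The log2 fold change was -0.94 (SE 0.32, 95% interval -1.75 to -0.14, edgeR adjusted p = 0.418). It was -0.62 without vehicle A, which holds the highest level and is 1.54 times vehicle B.

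S100b encodes a calcium-binding protein used to stain Schwann cells, and it is also known from adipocytes. The gene spans 76253853 to 76261159 on the plus strand of chromosome 10. Its levels were 6.41 and 5.84 CPM in vehicle A and B, against 5.73 and 6.74 in BML-260 A and B, with overlapping groups. The log2 fold change was 0.03 (SE 0.23, 95% interval -0.55 to 0.61, edgeR adjusted p = 0.976). The gene overlaps Dip2a on the other strand, and with no stated strand setting its reads may include some of that gene's. Mbp, Prx and Ncmap each overlap a pseudogene or antisense gene on the other strand.

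Ngfr encodes the low-affinity neurotrophin receptor, which is found on non-myelinating Schwann cells and also on some stromal cells. The gene spans 95568818 to 95587735 on the minus strand of chromosome 11. It had 75 and 74 reads in vehicle A and B, against 76 and 66 in BML-260 A and B. This made 3.56 and 3.20 CPM in vehicle A and B, against 3.66 and 3.01 in BML-260 A and B. The log2 fold change was -0.02 (SE 0.28, 95% interval -0.73 to 0.69, edgeR adjusted p = 0.986). For S100b and Ngfr the intervals still allow differences of about the size seen for Pmp22 in either direction.

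Set against each other, the myelinating genes had a mean log2 fold change of -1.04 over 5 genes and the general glial genes one of -0.31 over 3, a difference of -0.73. Within each library the myelinating genes, each centred on its own mean, averaged 0.70 and 0.37 log2 units in vehicle A and B and -0.85 and -0.22 in BML-260 A and B. The general glial genes averaged 0.31 and 0.00 with vehicle and -0.22 and -0.09 with BML-260. Sox10 divides that group. With Sox10 left out, an alternative chosen after seeing the data, the difference was -1.05. S100b and Ngfr together averaged 0.07 and -0.07 with vehicle and 0.01 and -0.01 with BML-260. The BML-260 averages join opposite movements. S100b was lower in BML-260 A than in B (5.73 against 6.74 CPM), and Ngfr was higher (3.66 against 3.01). The label of a general glial group is therefore not borne out as 1 pattern across these libraries.

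**Figure D2:**
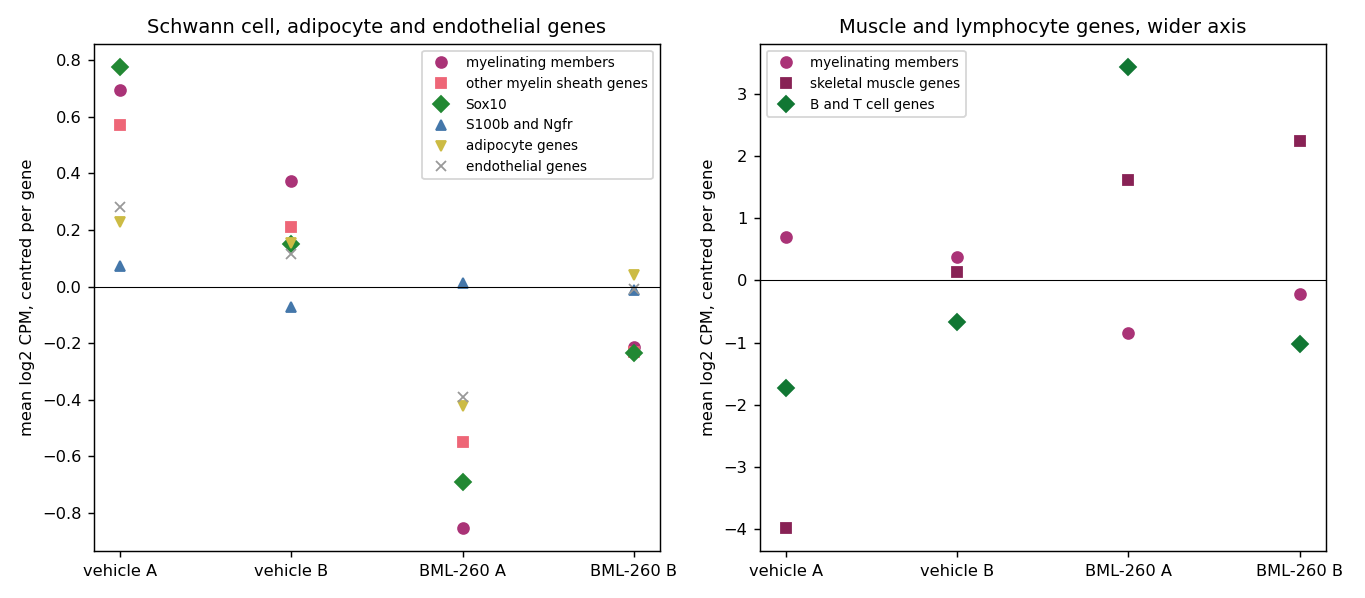
Mean log2 CPM of each gene list in each library (vertical axes, log2 units, every gene centred on its mean over the 4 libraries; horizontal axes, libraries). Left, the myelinating members, other myelin sheath genes and Sox10 are highest in vehicle A and lowest in BML-260 A. Adipocyte and endothelial genes are so too, from 0.23 and 0.28 in vehicle A to -0.42 and -0.39 in BML-260 A. The mean of S100b and Ngfr stays between -0.07 and 0.07. Right, on a wider axis, are the myelinating members with muscle and lymphocyte genes.

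Dividing counts by the Sox10 counts of the same library gave a narrow spread for Mbp and wider ones for other members. Mbp had 21.9 and 25.4 counts per Sox10 count with vehicle, against 20.1 and 22.3 with BML-260. That is a 1.27-fold spread over all 4 libraries. Prx had 5.98 and 6.33 with vehicle and 4.20 and 6.62 with BML-260, so its groups overlapped on this scale. For Mag they overlapped as well, at 0.347 and 0.588 with vehicle and 0.325 and 0.388 with BML-260. Ncmap remained lower, with 1.1 and 1.14 per Sox10 count against 0.775 and 0.785. S100b was higher on this scale, at 0.600 and 0.844 with vehicle and 1.49 and 1.28 with BML-260. Ngfr also was, at 0.333 and 0.463 against 0.950 and 0.569, and so was Pmp22, at 32.8 and 43.6 against 57.6 and 51.8, a 1.76-fold spread. These ratios share 1 denominator of 80 to 225 Sox10 counts and are given as a description.

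**Figure D3:**
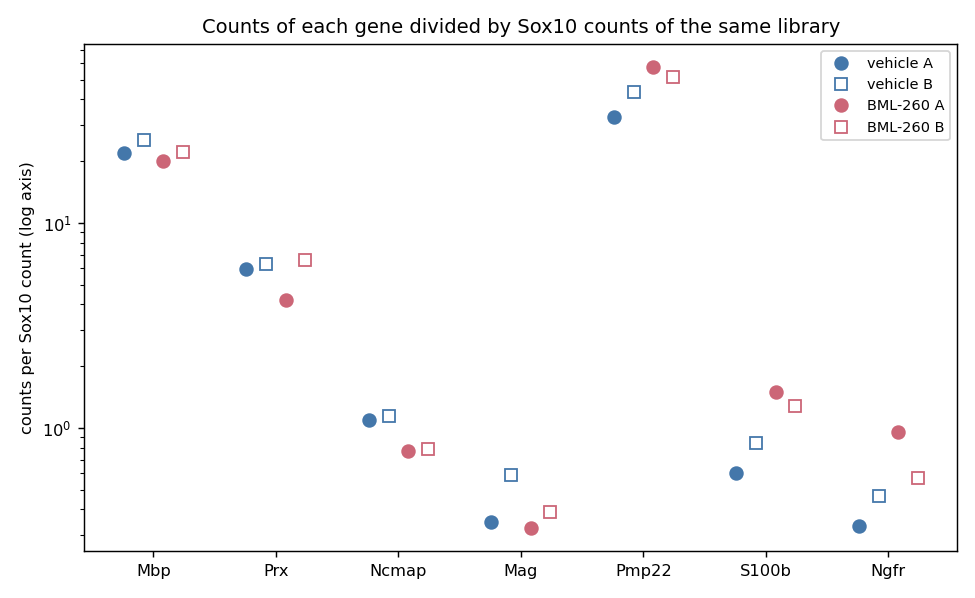
Counts of the other 7 members divided by the Sox10 counts of the same library (vertical log axis, no unit); blue vehicle, red BML-260, filled circles A and open squares B. The points of Mbp lie within 1.27-fold of each other, whereas S100b, Ngfr and Pmp22 have both BML-260 points above both vehicle points.

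Other genes of the myelin sheath were read from a list of 20, all tested. The list had a median log2 fold change of -1.01, against 0.02 over all tested genes, with 18 of 20 below zero, as were 47.5% of all tested genes. In the edgeR test over all genes 0 passed, 12 were lower and 1 higher at p under 0.05 before adjustment, and 1 was lower by DESeq2. Of all tested genes, 3.61% were lower and 7.45% higher at that unadjusted level, and DESeq2 called 0.511% of genes lower. Groups did not overlap in 17 that were lower and 2 that were higher, where 21.5% and 22.9% of all tested genes were so. A log2 fold change of -0.9 or below was found in 13 of the 20 and in 4 of the 5 myelinating members, against 1.84% of all tested genes. Both vehicle libraries stood above BML-260 B and that above BML-260 A in 12 of the 20, in all 5 myelinating members and in Sox10, against 14.8% of tested genes. That order was not particular to myelin genes. It was also found in 6 of 10 adipocyte and 4 of 7 endothelial genes, but in 0 of 9 fibroblast and 0 of 6 macrophage genes.

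Nfasc, which encodes the adhesion protein neurofascin of the nodes of Ranvier, had a log2 fold change of -1.03 (SE 0.27). Pllp, which encodes the membrane protein plasmolipin, had one of -0.97 (SE 0.26). In the other direction stood Fgd4, a gene mutated in a demyelinating neuropathy, at 0.63 (SE 0.17), with 14.2 and 13.01 CPM in vehicle A and B, against 23.2 and 18.8 in BML-260 A and B. Mpp6 lay at 0.59 (SE 0.26). The lipid phosphatase gene Mtmr2, which like Fgd4 is expressed in many tissues, lay at -0.18 (SE 0.13).

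**Figure D4:**
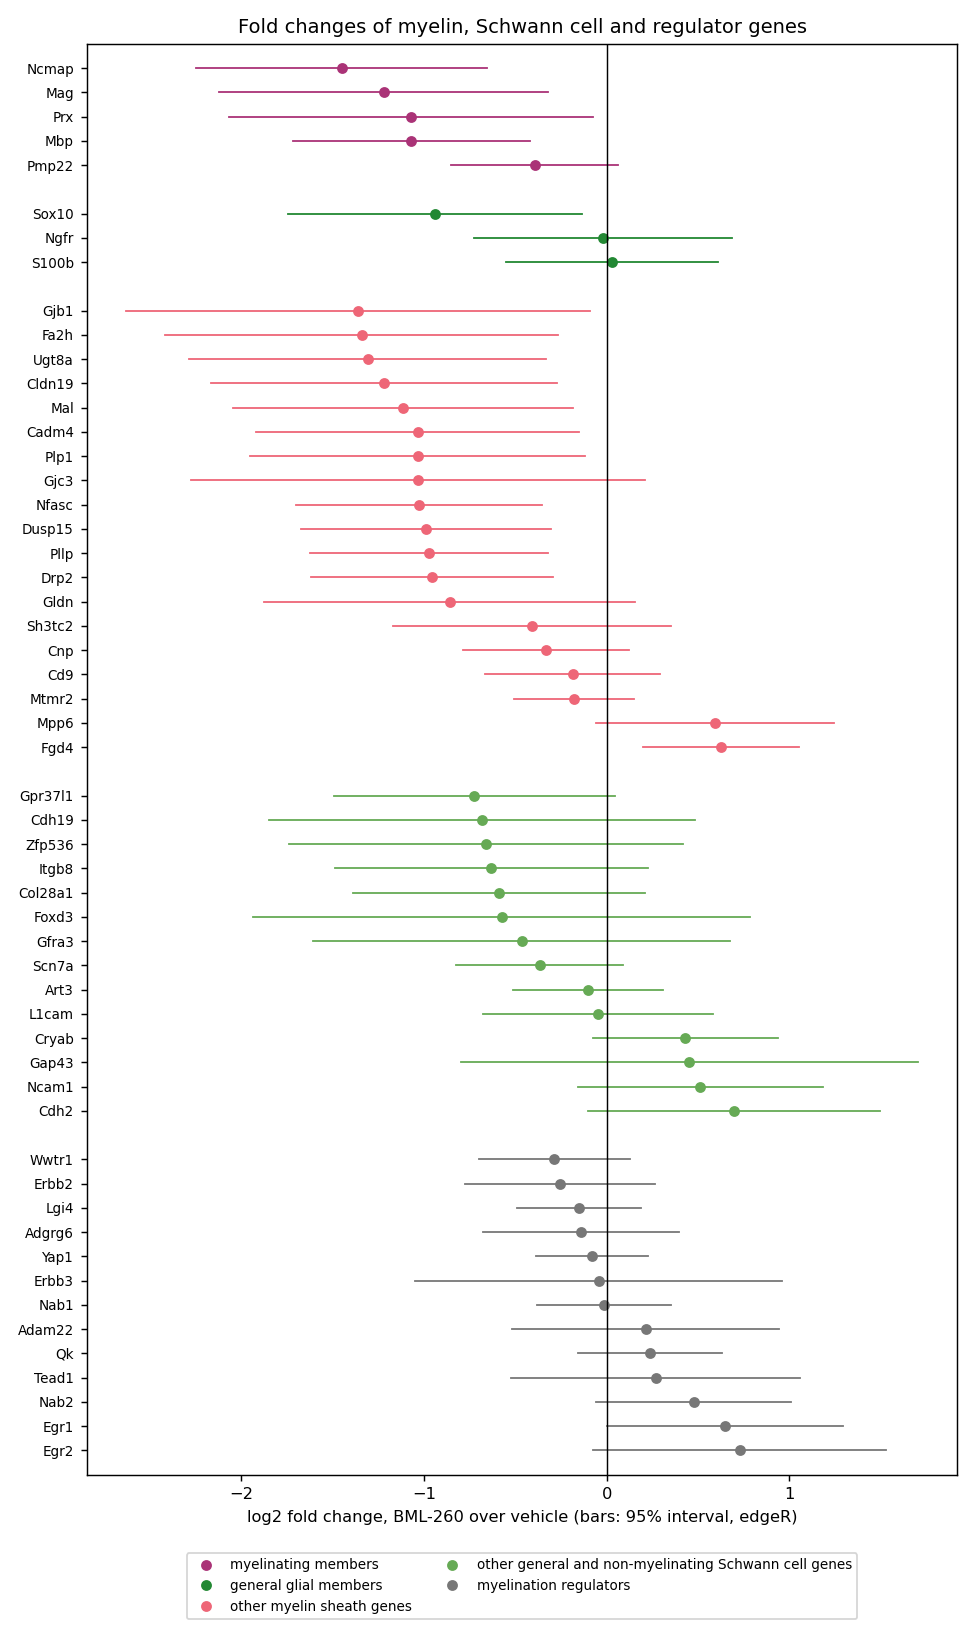
Log2 fold change, BML-260 over vehicle (horizontal axis; points, with 95% intervals from edgeR as bars), of tested genes of 5 lists. Most genes of the sheath lie near -1, while S100b, Ngfr, the regulators and the other Schwann cell genes lie closer to 0.

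Of 16 regulators of myelination, 13 were tested, with a median log2 fold change of -0.01 and 7 below zero. Groups did not overlap in 4 that were lower and 4 that were higher. Over all tested genes these shares were 21.5% and 22.9%. Their difference from the sheath genes was not tested. In edgeR 0 passed after adjustment, 1 was higher and 0 were lower at p under 0.05 before adjustment (7.45% of tested genes were higher at that level), and DESeq2 called 0, where it called 2.02% of genes higher. Egr2, the partner of SOX10 in Schwann cells and an early response gene in many other cells, lay at 2.47 and 3.15 CPM in vehicle A and B, against 5.49 and 3.87 in BML-260 A and B (log2 fold change 0.73, SE 0.32, edgeR adjusted p = 0.474). Its relative Egr1 had 0.65 (SE 0.26), and Nab2, which encodes a cofactor of both, 0.48 (SE 0.21). The RNA-binding protein gene Qk and the TEAD factor gene Tead1, both broadly expressed, had 0.24 (SE 0.16) and 0.27 (SE 0.31). Pou3f1, Pou3f2 and Nrg1 stayed below 1 CPM in all libraries.

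Other genes of Schwann cells in general and of the non-myelinating kind numbered 18, of which 15 were tested. Their median log2 fold change was -0.37, with 11 below zero, none at p under 0.05 before adjustment and none passing in edgeR or DESeq2. Gpr37l1, which encodes an orphan receptor of glia, had -0.72 (SE 0.30), with 3.89 and 3.54 CPM in vehicle A and B, against 1.93 and 2.55 in BML-260 A and B. The cadherin gene Cdh2 had 0.70 (SE 0.32) and the small heat shock protein gene Cryab, which is abundant in muscle, 0.43 (SE 0.20). Art3, which is abundant and expressed in other cells as well, had -0.10 (SE 0.16). Gfap, Sox2 and Fabp7 stayed below 1 CPM in every library.

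Of 10 neurotrophin and receptor genes, the partners of NGFR, 7 were tested, with a median log2 fold change of -0.13 and 0 called by edgeR. Ntrk2, which encodes the BDNF receptor TrkB, lay at 289 and 266 CPM in vehicle A and B, against 175 and 208 in BML-260 A and B (log2 fold change -0.53, SE 0.16, edgeR adjusted p = 0.377). DESeq2 called it lower with an adjusted p of 0.0486, and the authors' deposited table gives it one of 0.0528, above 0.05. Ntf5, a ligand gene, had 2.64 (SE 0.67) from under 1 CPM in every library. Ntrk3 and Sort1, which encode a second Trk receptor and the NGFR partner sortilin, had 0.37 (SE 0.20) and -0.25 (SE 0.20).

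Axon and neuron genes were mostly near the floor, and 6 of 14 were tested. Their median log2 fold change was 0.07, with 0 called by edgeR or DESeq2. Th and Dbh, which mark noradrenergic neurons, had 0 counts in all 4 libraries; 0 counts do not show that axons are absent, since most of a neuron's messenger RNA stays in its cell body. Map1b, a gene for a microtubule protein, had 0.66 (SE 0.17), Stmn2 -0.67 (SE 0.32) and the CGRP gene Calca -0.72 (SE 0.41). Genes used to mark the perineurium, the sheath around nerve bundles, lay below zero in 6 of 6, against 47.5% of all tested genes. Their median was -0.42, with 0 called by edgeR or DESeq2. Adipocyte genes lay below zero in 10 of 10 and endothelial genes in 7 of 7. Among the perineurial genes were the tight junction gene Cldn1 at -0.92 (SE 0.29) and the integrin gene Itgb4 at -0.64 (SE 0.28).

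The label of Schwann cell genes was checked against other cells that make myelin proteins or SOX10. Of 7 oligodendrocyte genes, 6 stayed below 1 CPM in every library, with Olig2, Opalin and Nkx6-2 at 0 counts and Mog and Mobp at most at 0.144 and 0.0475 CPM. The 7th, Cspg4, is also a pericyte gene. Of 7 melanocyte genes, 4 stayed below 1 CPM, Tyr and Tyrp1 among them. Dct, which encodes a melanin synthesis enzyme, was present at 2.75 and 1.08 CPM in vehicle A and B, against 1.49 and 2.41 in BML-260 A and B, with overlapping groups (log2 fold change 0.03, SE 0.55). Kit and Mitf, which other cells express too, had -0.16 and 0.12. The part of melanocytes in the level of Sox10 was not tested. The adipocyte markers Adipoq, at 1662 to 3022 CPM, and Fabp4, at 6089 to 8467, fit the labelled tissue.

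Markers of other cell types were read in the same libraries, and in these lists 0 genes passed the edgeR test over all genes. The 16 skeletal muscle genes together took 0.0422% and 1.12% of counts in vehicle A and B and 3.22% and 4.45% in BML-260 A and B, with both BML-260 libraries above both vehicle libraries in 15 of 15 tested members (22.9% of all tested genes) and none called by DESeq2. The 10 B and T cell genes took 0.0228% of counts in BML-260 A and at most 9.46e-04% in the others. BML-260 A, which had the lowest CPM of every myelinating member and of Sox10, was also the library with the most lymphocyte transcripts. Vehicle A, with the highest CPM of 4 of the 5 myelinating members, was the one with the least muscle. Adipocyte genes had a median log2 fold change of -0.37 over 10 and endothelial genes one of -0.39 over 7. Both BML-260 libraries were below both vehicle libraries in 6 of the 10 and 5 of the 7, against 21.5% of all tested genes. DESeq2 called Retn alone of these genes lower, and its adjusted p in the authors' deposited table is 0.0526, above 0.05. Both lists were lowest in BML-260 A, where they averaged -0.42 and -0.39. Their part in the differences of the myelin genes was not tested. Neuromuscular junction genes, which muscle fibres express, had a median of 1.90 over 7 tested, with groups apart and higher in 7 of 7. DESeq2 called 2 of them higher, Colq and Rapsn, against 2.02% of genes. The authors' deposited table gives Colq an adjusted p of 0.0357 and Rapsn one of 0.0539, above 0.05. Fibroblast genes had a median of -0.04 over 9 and macrophage genes one of 0.26 over 6. The 2 tested epithelial genes, Trp63 and Krt19, had -1.23 and -0.86, and the other 6 stayed below 1 CPM. DESeq2 called Trp63 lower (adjusted p = 0.0174), and the authors' deposited table gives it an adjusted p of 0.0187. Genes of lymph node stroma had a median of 1.02 over 4 tested, with Ccl21a at 56.7 CPM in BML-260 A and at 4.37 to 10.6 in the others.

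Leaving out any 1 library kept all 5 myelinating members and Sox10 below zero. Without BML-260 A the log2 fold changes were -0.81 for Mbp, -0.27 for Pmp22, -0.93 for Mag, -1.25 for Ncmap and -0.75 for Sox10. Without BML-260 B they were -1.41, -0.56, -1.62, -1.71 and -1.19 in the same order. S100b and Ngfr lay on either side of zero, between -0.10 and 0.13 and between -0.18 and 0.11. The median of the other sheath genes lay between -1.19 and -0.70.

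**Figure D5:**
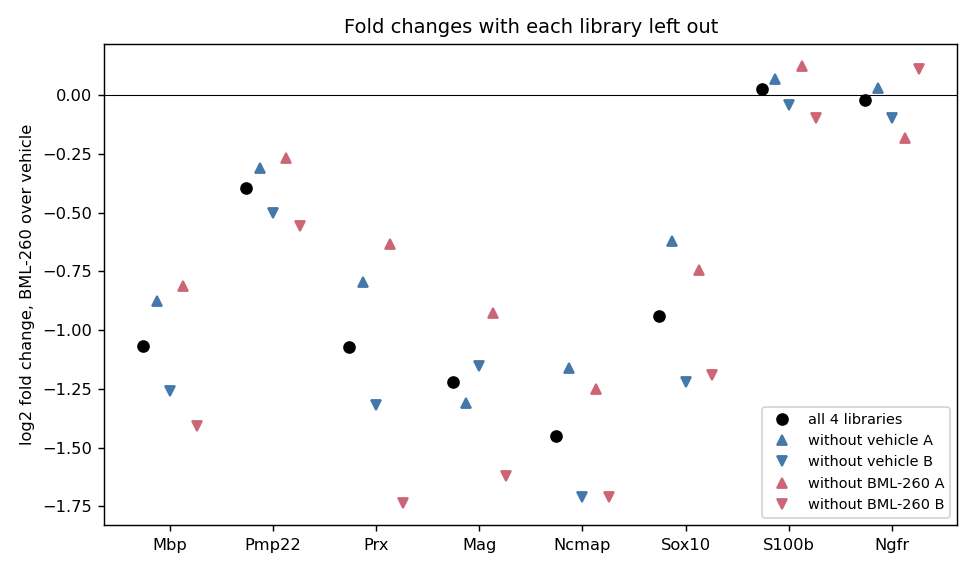
Log2 fold change, BML-260 over vehicle (vertical axis), of each member with all 4 libraries (black) and with each library left out (blue, a vehicle library; red, a BML-260 library). All points of Mbp, Pmp22, Prx, Mag, Ncmap and Sox10 lie below 0, and those of S100b and Ngfr lie on both sides of it.

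The genes most like the myelinating members were found by the root mean square distance between centred log2 CPM profiles over the 4 libraries, measured to the mean profile of those 5. The nearest genes outside the 8 were Fam221b (0.042), Gm14286 (0.043), Shc4 (0.045), Slc16a11 (0.051) and Gm9992 (0.054), all in log2 units. Their levels were low, from 0.193 CPM for Gm14286 to 6.65 for Gm9992 across the libraries. Mbp itself was at 0.034, Sox10 at 0.14, Pmp22 at 0.36, S100b at 0.57 and Ngfr at 0.62. Of the sheath list, Dusp15 and Drp2 were nearest, at 0.074 and 0.085.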

How the data were processed

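Per the labels' protocols, TRIzol was used to extract total RNA, from which Illumina libraries were made. The authors deposited 1 table of expected counts (estimated counts, not normalized) and FPKM values per gene and library, with group means, also as log2 values, and their own comparison as a log2 fold change, p-value and adjusted p-value, per the file headers. RSEM 1.2.31, HISAT2 2.1.0, DESeq2 1.10.1 and the build GRCm38.p5 stand in the submitters' processing notes; their roles, the annotation, strand setting and filters are not given in the sources used here.

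Expected counts were rounded. Low counts were removed with filterByExpr, leaving 15643 genes, and BML-260 was compared with vehicle by edgeR 4.0.16 quasi-likelihood (R 4.3.3), TMM factors, two-sided, with Benjamini-Hochberg adjustment over all of them. There were 2 residual and 3.28 prior degrees of freedom. Fold changes and log2 CPM use a prior count of 0.5, and the standard error was taken as the size of the fold change over the root of the F statistic. Lists were described by counts and medians, without a test. Totals ranged from 19999836 to 23726781 counts. Libraries of 1 group were further apart than counting noise (chi-square per degree of freedom 47.5 and 53.0), so each counted as 1 sample. Alternatives were DESeq2 1.42.0, limma-voom 3.58.1, other scaling and filters, leaving out each library and the library letter as a term. The test was checked on simulated counts with the trended dispersion of the data. It called 45.8% of 48 genes planted at 0.5-fold and 80.4% of 46 planted at 0.25-fold, with 6 false calls. Every simulated gene had the trended dispersion, without scatter of single genes around it. The shares called may therefore not hold for the real counts.

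The members and lists were chosen with earlier results of these data known. Named genes are the 8 members, the 3 genes of each other list with the smallest p and the 2 most abundant, of which those without bearing on the members are given as counts, and the 5 most alike in profile (of these, 2 genes are counted in their lists but not reported here); Th, Dbh and other genes near 0, Dct, Mpp6, Dusp15 and Drp2 were named after their values were seen. GENCODE vM21 gave overlapping genes. Promoters are from RefSeq on GRCm38.p6, and those of Mbp and Sox10 were not used here.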

Additional observations from a re-analysis of the deposited data

How the results depend on the processing

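With all libraries edgeR called 1 gene higher and 0 lower, and 0 of the 8 members and 0 of 20 other sheath genes. Other tools and filters called more. DESeq2 called 312 higher and 79 lower, 2 members and 1 sheath gene. Without a filter on low counts edgeR called 565 higher and 86 lower, 3 members (Mbp, Prx and Ncmap) and 4 sheath genes; the cause was not tested. Limma-voom, RLE factors, library totals and a minimum of 10 counts in every library kept the counts at 1 and 0, with 0 members. With the library letter as a term, a replicate block, 0 genes were called higher and 0 lower; the letters were not shown to pair the libraries (correlation of the A minus B differences over 12910 genes -0.011). Leaving out 1 library gave 0 to 300 genes called higher, namely 0 when vehicle A was dropped, 300 when vehicle B was and 5 when BML-260 B was, and 0 to 9 lower, with 0 members in each case. Mbp, Pmp22, Prx, Mag, Ncmap and Sox10 stayed below zero in all 11 alternatives. S100b (0.03) changed sign with library totals, to -0.033, and with a library left out ranged from -0.10 (no BML-260 B; -0.04 with no vehicle B) to 0.13. Ngfr (-0.02) ranged from -0.18 to 0.11 (no BML-260 B; 0.03 with no vehicle A). The difference between myelinating and general glial genes (-0.73) ranged from -1.01 without BML-260 B to -0.51 without BML-260 A; it was -1.05 with medians in place of means and -1.05 without Sox10, and its other alternatives moved it by less than the 0.25 spread between libraries. Mag, with 26 to 94 reads per library, and Ngfr, with 66 to 76, were the members with the fewest reads.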
